A study of Rattus norvegicus with 12 samples.

Results

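The genes described here hold back the cell cycle or answer to p53. They are the cyclin-dependent kinase (CDK) inhibitors Cdkn1a, Cdkn1b, Cdkn1c, Cdkn2c and Cdkn2d and the p53 target genes Mdm2, Ccng1, Gadd45a and Btg2, chosen by name. Of these 9 genes, 8 were among the 13151 genes analysed, and all 8 passed the filter on low values that left 11633 genes for testing. Cdkn2d was not analysed here. In the renal cortex of obese rats, Cdkn1c stood at 1.95 times its level in lean rats, and it stayed high in obese rats given a sodium–glucose cotransporter 2 inhibitor (SGLT2i). Ccng1 rose by a smaller amount in the obese rats, and Btg2 was higher in the treated obese rats than in the lean rats. Cdkn1a, the p53 target that is most often read as a sign of arrest, was not called in any comparison with all 12 rats in the fit.

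CDK inhibitors of the CIP/KIP family (Cdkn1a, Cdkn1b and Cdkn1c, coding for p21, p27 and p57) bind cyclin and kinase together, whereas the INK4 family (Cdkn2c and Cdkn2d, coding for p18 and p19) binds the kinase partners of the D-type cyclins. Both keep a cell from passing from G1 into DNA synthesis. The transcription factor p53 answers DNA damage and other stress by turning on Cdkn1a and further genes, among them Mdm2, whose product sends p53 for degradation. In the kidney, Cdkn1c is known as a marker of the mature podocyte, the non-dividing cell that covers the glomerular capillary, and Cdkn1a as a gene that injured tubule cells switch on.

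RNA was measured in the renal cortex of 12 male rats, all 32 weeks old, in 3 groups of 4. Zucker Lean (ZL) rats were the lean controls. Zucker Fatty (ZF) rats were the obese model, with a defect of leptin signalling that the methods place in the leptin receptor and the deposited design text in leptin. ZF-SGLT2i rats were ZF rats that received the SGLT2 inhibitor canagliflozin in their food at 10 mg/kg/day during the last 8 weeks, starting when they were 24 weeks old, with their food intake matched to that of untreated ZF rats. The study asked how the cell cycle changes with obesity and with the inhibitor. The ZL rats that the methods describe, and the ZF rats followed with them, had kidney biopsies earlier in life, whereas the treated rats belonged to a separate experiment with untreated ZF rats of its own and no ZL rats. The study also calls the sequenced untreated rats by the name of that experiment's untreated group. By that name, ZF and ZF-SGLT2i rats came from the same experiment and were assigned at random, whereas both comparisons with ZL, ZF against ZL among them, set obese rats of a different experiment, for which no biopsy is described, against biopsied lean rats, so that there the group, the biopsies and the experiment cannot be told apart. Libraries were depleted of ribosomal RNA and kept the strand. Reads on genes ranged from 8886901 to 12210257 in ZL, from 8824980 to 11191377 in ZF and from 8914666 to 10293049 in ZF-SGLT2i rats. Values are read counts scaled to library size with edgeR's TMM factors (TMM-scaled CPM), which are not per transcript length, so levels are compared between groups and not between genes. Fold changes are on the scale of log2(CPM + 1), with adjusted p-values from limma over all genes tested, and genes whose adjusted p was under 0.05 are spoken of as called. The 3 comparisons share rats and are not independent of each other. All 11 proximal tubule markers looked for were in the table and none was at 0 in every rat, nor was any of the 13 podocyte markers in it. Since whole cortex was sequenced, a change in the number of cells of a type and a change in the RNA of each cell cannot be told apart.

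Letters that p53 is known to bind were looked for close to the start of the members. In the windows from 250 bases before to 50 bases after the gene start (RefSeq, build GRCr8), the p53 motif of 10 bases, of which a full response element holds a pair of copies, was searched on both strands. It was found in 4 of the 7 analysed members with an entry, Cdkn1a, Cdkn2c, Ccng1 and Gadd45a, and in 7.98% of all 33469 windows. Cdkn1c had no entry. The matches are printed in the direction of the gene, with the motif in capitals.
Cdkn1a, chr20:7150721-7150750, plus strand: tggctttcagGAACATGTCTtgacttgttc
Cdkn2c, chr5:129644883-129644912, minus strand: tggagagcttGAGCTAGCTCggtcgtaggc
Ccng1, chr10:25685089-25685118, minus strand: agacctgcccGGGCAAGCCTtggcattgaa
Gadd45a, chr4:97486828-97486857, minus strand: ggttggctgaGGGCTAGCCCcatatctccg
The Cdkn1a match begins 201 bases before the gene start, that of Ccng1 232, that of Gadd45a 48 and that of Cdkn2c 11 bases before it. Btg2 had no match to the p53 motif in its window and held the cAMP response element TGACGTCA, found in 1.83% of all windows, 201 bases before its start.
Btg2, chr13:48087874-48087901, minus strand: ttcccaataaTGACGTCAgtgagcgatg
These matches are letters in a window and say nothing about binding. Sites outside the windows were not looked for, so a member without a match may still carry one. The E-box CACGTG, through which clock factors act, was in 6.42% of all windows, the D-box in 0.893%, and both were in none of the 7.

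Of the 8 members, 2 were called in ZF against ZL, Cdkn1c and Ccng1, both higher in ZF, which is 25% of the members where 18.8% of all genes tested were called, 8.19% higher and 10.6% lower. The median log2 fold change of the members was 0.08, against -0.01 for all genes tested. No member was called in ZF-SGLT2i against ZF by limma, edgeR or DESeq2, where limma called 3.15% of all genes. There, 2 members, Cdkn1a and Gadd45a, had an unadjusted p under 0.05, as did 17.2% of all genes, and the median of the members was 0.04 against 0.01. The members called in ZF-SGLT2i against ZL were 2, Cdkn1c and Btg2, both higher in ZF-SGLT2i, beside 27.4% of all genes called and 12.4% called higher, with a median of 0.07 against 0.00 (rounded).

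**Figure D1:**
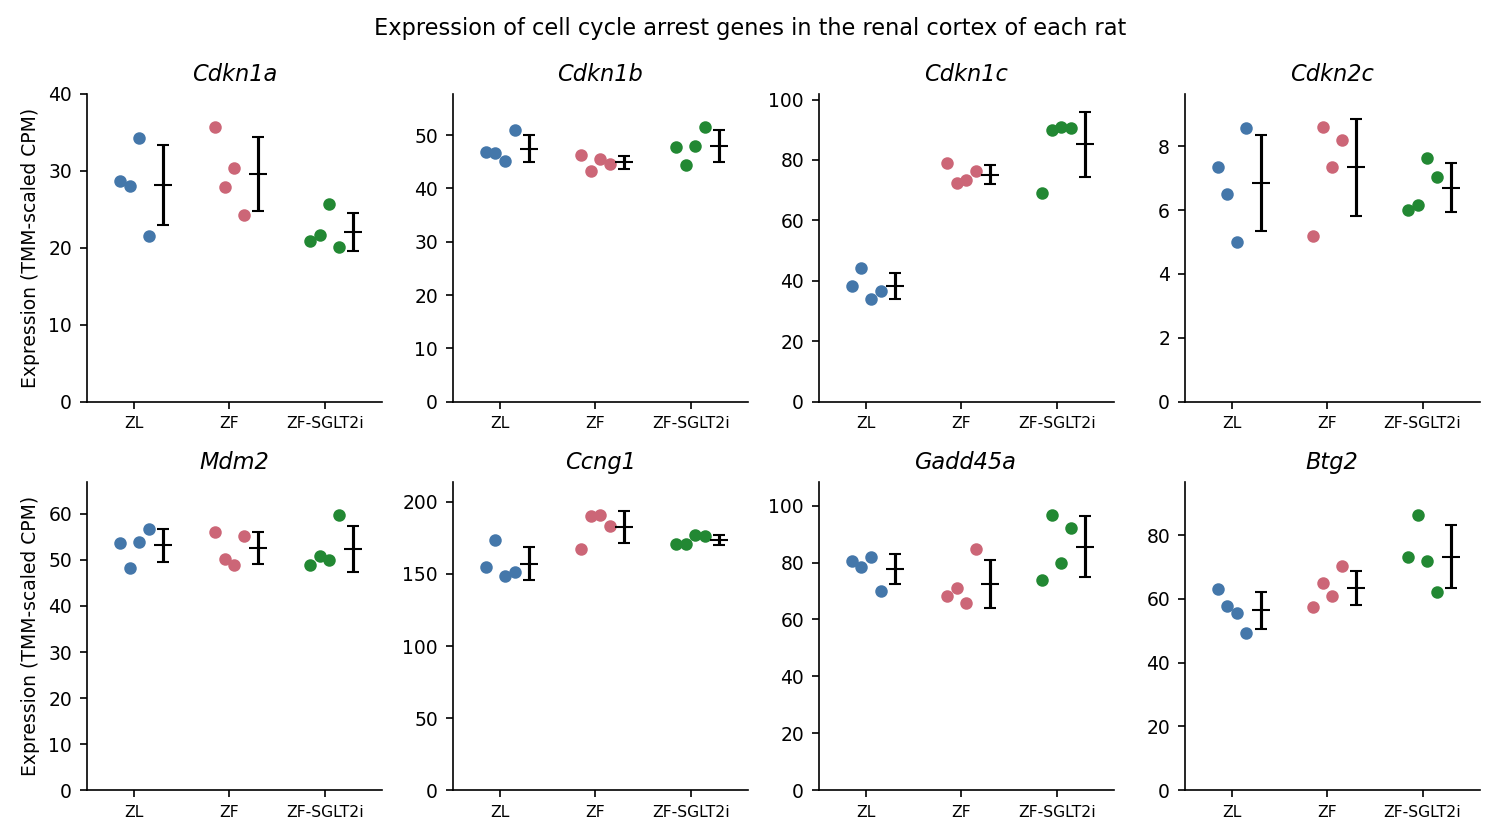
Expression of the 8 analysed genes in TMM-scaled CPM (vertical axis, starting at 0 and scaled to each gene) in each of 4 ZL, 4 ZF and 4 ZF-SGLT2i rats, a point for each rat, with bars for the mean and SD. For Cdkn1c the 4 ZL rats, at 34.1 to 44.2, lie below all 8 obese rats, at 69.0 to 91.1, and for the other genes the 3 groups overlap.

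Cdkn1c was the member with a clear separation of the groups. It was at 38.3, 44.2, 34.1 and 36.5 CPM in ZL rats 1 to 4, at 79.0, 72.3, 73.2 and 76.2 in ZF rats 2 to 5, and at 69.0, 89.9, 91.1 and 90.6 in ZF-SGLT2i rats 2, 3, 4 and 6. Every obese rat, treated or not, was above every ZL rat, and the treated rats reached both below and above the untreated ones. The means were 38.3 ± 4.30 in ZL, 75.2 ± 3.05 in ZF and 85.2 ± 10.8 in the treated rats (SD, n = 4), and 301 to 905 reads lay behind each value. The log2 fold change was 0.96 in ZF against ZL (SE 0.094, 95% confidence interval 0.76 to 1.16, adjusted p = 3.2e-05) and 1.13 in ZF-SGLT2i against ZL (0.93 to 1.33, adjusted p = 5.2e-06). Groups without overlap were found for 1 of the 8 members in ZF against ZL, this gene, and for 19.0% of all genes, 8.67% with ZF above ZL. The share with ZF-SGLT2i above ZL was 12.9%. Between ZF-SGLT2i and ZF the difference was 0.17 (-0.03 to 0.37, adjusted p = 0.39), an interval that runs from a slight fall to a further rise. ZF-SGLT2i rat 2 was low among the treated rats, and without it the difference from ZF was 0.27 (adjusted p = 0.11) and that from ZL 1.23.

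Podocyte markers moved in the same direction. All 13 had a positive log2 fold change in ZF against ZL, with a median of 0.34, and 9 were called higher (4 without ZF rat 2 or ZL rat 1, 5 without ZF rat 5 or ZL rat 3, and 11 without ZL rat 2). Nes, coding for the intermediate filament nestin, went from 147 ± 23.1 to 265 ± 29.8 CPM (log2 fold change 0.86, adjusted p = 0.0004) and Nphs1, coding for the slit diaphragm protein nephrin, from 143 ± 20.3 to 199 ± 25.3 (0.47, adjusted p = 0.0093). The transcription factor gene Wt1 had 0.06 (adjusted p = 0.79). The summed level of the 13, of which Podxl was the most abundant, was 1935 ± 246 CPM in ZL, 2629 ± 249 in ZF and 2675 ± 282 in the treated rats. Only Tdrd5 of the 13 was called in ZF-SGLT2i against ZF, lower by 0.67 (adjusted p = 0.031), with a median of 0.02 for the list, and that call was lost without ZF rat 2 or 4 or ZF-SGLT2i rat 2, 3 or 6 (adjusted p from 0.061 to 0.10). ZF-SGLT2i rat 2 was low in podocyte genes as well, with Nphs1 at 173 CPM where the other treated rats had 203 to 207.

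Summed over the list, proximal tubule markers, for the cells that make up most of the cortex, were lower in the obese rats. Their summed level, with Lrp2 the most abundant, was 29275 ± 1534 CPM in ZL, 22177 ± 2783 in ZF and 19958 ± 2314 in the treated rats, and every ZL rat was above every obese rat. Of the 11, 8 had a negative log2 fold change in ZF against ZL, with a median of -0.21. Aqp1 and Kap were called lower and Slc22a6 higher, which makes 3 calls (1 without ZF rat 3 or 5 or ZL rat 1 or 4, and 5 without ZF rat 4). In the treated rats against ZL all 11 were negative and 4 were called lower (2 without ZF-SGLT2i rat 3 or 6), and against ZF 2 were, Slc22a6 and Kap (1 without ZF rat 2 or 4 or ZF-SGLT2i rat 2, 3 or 6). The part of these cells in the member results was not tested.

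Set against that sum, in a comparison added after the values were seen, Cdkn1c, which is not one of the 13, stood at 2.12, 1.94, 1.98 and 1.90% of the podocyte sum in the 4 ZL rats. It stood at 2.88, 2.73, 3.22 and 2.68% in the ZF rats and 3.05, 3.31, 3.22 and 3.14% in the ZF-SGLT2i rats. The ZL rats stayed apart from the others on this scale too, and ZF-SGLT2i rat 2 no longer stood out. The means were 1.98 ± 0.0980% in ZL, 2.88 ± 0.244% in ZF and 3.18 ± 0.110% in the treated rats (SD, n = 4). An exact two-sided permutation test gave p = 0.0286 for ZF against ZL and for ZF-SGLT2i against ZL, the smallest p that the 70 assignments of 4 rats against 4 can give, and p = 0.114 for ZF-SGLT2i against ZF. This scale was chosen after Cdkn1c itself had been seen to separate ZL from the obese rats. The p-values against ZL were therefore largely settled beforehand and are no test of a rise beyond that of the podocyte markers. The podocyte markers were not raised alike. Set against 12 of them singly, in ratios that all share the same Cdkn1c values, Cdkn1c was higher on average in ZF than in ZL for each. The rats of these groups did not overlap for 11 of the 12. The exception was Nes, the marker with the values given above, against which Cdkn1c stood at 29.8, 25.1, 26.7 and 23.7% in the ZL rats, at 27.3, 27.4, 32.7 and 26.8% in the ZF rats and at 29.4, 35.0, 31.2 and 30.4% in the treated rats. ZL rat 1 lay within the range of both obese groups there, so the separation seen for the sum was not seen for Nes. Between ZF-SGLT2i and ZF, Cdkn1c against single markers was higher on average in the treated rats for 11 of the 12, all but Magi2. Since the ratios share their Cdkn1c values, the counts in either comparison are not counts of separate results. ZF-SGLT2i and ZF rats did not overlap for 2 of the 12, Tcf21 and Tdrd5. Both markers were themselves lower in every treated rat than in every ZF rat, Tcf21 at -0.28 (adjusted p = 0.12) and Tdrd5 at -0.67 (adjusted p = 0.031). Cdkn1c itself overlapped between these groups and was not called (0.17, adjusted p = 0.39).

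**Figure D2:**
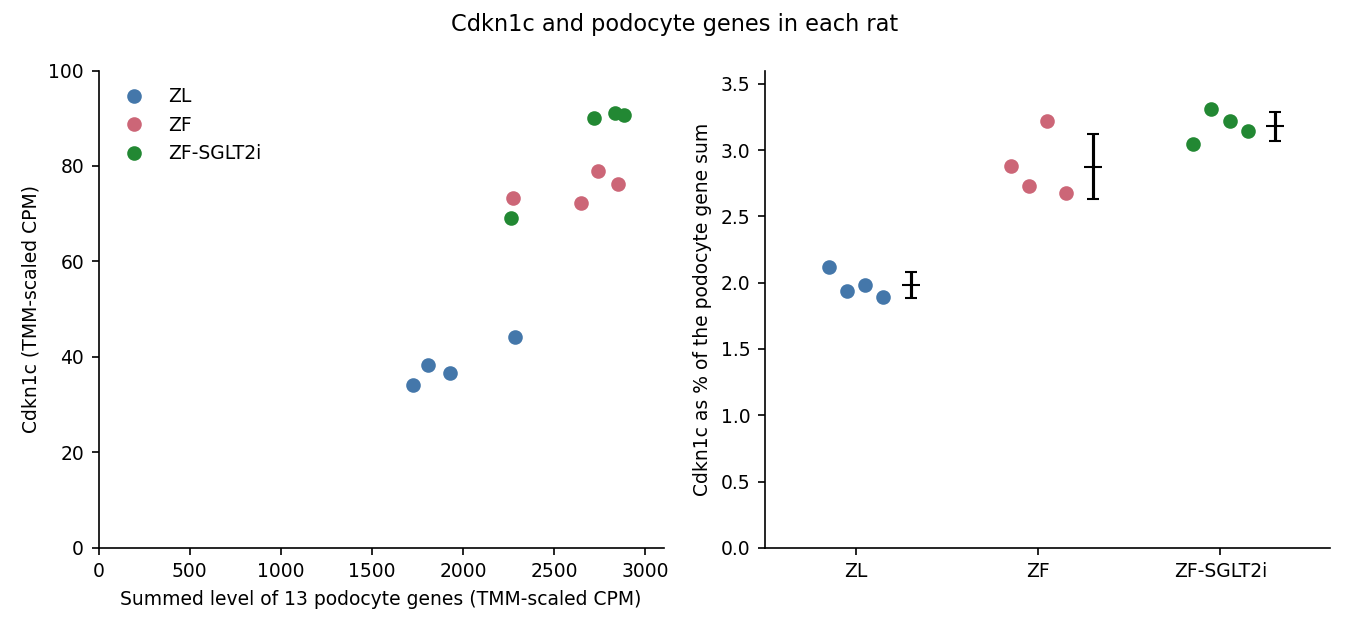
Left, Cdkn1c against the summed level of the 13 podocyte markers, both in TMM-scaled CPM, and right, Cdkn1c as a percentage of that sum, a point for each rat of the 3 groups, with bars on the right for the mean and SD. The percentage lies between 1.90 and 2.12 in the ZL rats and between 2.68 and 3.31 in the 8 obese rats.

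In the mouse, Cdkn1c lies in a cluster of imprinted genes, so its neighbours were looked at after its own values had been seen. In the gene order of GRCr8, the nearest analysed protein-coding genes were Tssc4, Trpm5 and Kcnq1 on one side and Slc22a18, Phlda2 and Nap1l4 on the other. None of the 6 was called higher in ZF against ZL. Slc22a18, a transporter gene that is imprinted in the mouse, went the other way, from 157 ± 15 to 111 ± 17.4 CPM (log2 fold change -0.50, adjusted p = 0.016), and was at 125 ± 20.6 in ZF-SGLT2i. Kcnq1, a potassium channel gene, had 0.20 in ZF against ZL (adjusted p = 0.25) and was higher in ZF-SGLT2i than in ZL by 0.58 (adjusted p = 0.0027). Phlda2 had -0.58 in ZF against ZL (adjusted p = 0.18) at 4.04 ± 2.25 CPM in ZL and 2.11 ± 0.463 in ZF.

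Cdkn1a, coding for p21, was at 28.7, 28.0, 34.2 and 21.5 CPM in the ZL rats, at 35.8, 28.0, 30.3 and 24.3 in the ZF rats and at 20.9, 21.6, 25.7 and 20.1 in the ZF-SGLT2i rats. ZL and ZF rats overlapped widely, and the treated rats were low, with 2 of them below every other rat and 1 above the lowest ZF rat. The means were 28.1 ± 5.21, 29.6 ± 4.82 and 22.0 ± 2.49 (SD, n = 4). The log2 fold change was 0.08 in ZF against ZL (adjusted p = 0.74) and -0.40 in ZF-SGLT2i against ZF (95% confidence interval -0.69 to -0.11, unadjusted p = 0.0109, adjusted p = 0.14). It was -0.33 in ZF-SGLT2i against ZL (adjusted p = 0.092), and without ZL rat 4 that difference passed (adjusted p = 0.020). The difference from ZF was negative in all 20 alternatives and passed in none of them, with adjusted p from 0.062 to 0.32. The sum of the fibroblast and mesangial markers was lower in the treated rats than in the ZF rats as well. Of 10 tested, 8 were negative in ZF-SGLT2i against ZF with a median of -0.61, and 4 were called lower, among them the collagen gene Col3a1 at -1.03 (adjusted p = 0.0055) and Dcn, coding for decorin, at -1.11 (adjusted p = 0.0083). Col1a2 and Pdgfrb were the others, and the list had 2 calls without ZF rat 2 or 4 or ZF-SGLT2i rat 3 or 4, and 7 without ZL rat 4 or ZF rat 5 and with only these 2 groups in the fit. The summed level of the 11 in the table was 715 ± 103 CPM in ZL, 925 ± 176 in ZF and 650 ± 21.0 in the treated rats, with Pdgfra the most abundant and none at 0 in every rat, and every treated rat was below every ZF rat. Their part in the Cdkn1a values was not tested.

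Cdkn1b, coding for p27, was the steadiest of the inhibitors. Its values lay between 45.1 and 51.0 CPM in ZL, between 43.2 and 46.2 in ZF and between 44.3 and 51.6 in ZF-SGLT2i rats, with means of 47.4 ± 2.51, 44.9 ± 1.3 and 47.9 ± 2.98. The log2 fold changes were -0.08 (95% confidence interval -0.21 to 0.05), 0.09 (-0.04 to 0.22) and 0.01 (-0.12 to 0.14) in the 3 comparisons. Cdkn2c, the INK4 gene analysed, had few reads, 44 to 96 per rat, and wide intervals. It was at 6.86 ± 1.51 CPM in ZL, 7.34 ± 1.53 in ZF and 6.71 ± 0.772 in the treated rats, with log2 fold changes of 0.09 (-0.26 to 0.43), -0.10 (-0.45 to 0.25) and -0.01 (-0.36 to 0.34). Of the other INK4 genes, Cdkn2b was below the filter on low values and Cdkn2a was not analysed here.

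Among the p53 targets, Ccng1, coding for cyclin G1, rose in ZF. It was at 155, 174, 149 and 151 CPM in the ZL rats, at 167, 190, 191 and 183 in the ZF rats and at 171, 171, 177 and 176 in the ZF-SGLT2i rats. ZF rats were mostly above ZL rats, but ZL rat 2 was above ZF rat 2. The 4 treated rats were above ZF rat 2 and below the other 3 ZF rats, and 2 of them were below ZL rat 2. The means were 157 ± 11.3, 183 ± 11.0 and 174 ± 3.51 (SD, n = 4), a log2 fold change of 0.22 in ZF against ZL (SE 0.061, 95% confidence interval 0.09 to 0.35, adjusted p = 0.024), of -0.07 in ZF-SGLT2i against ZF (adjusted p = 0.59) and of 0.15 in ZF-SGLT2i against ZL (adjusted p = 0.090). The call in ZF against ZL was lost without ZL rat 1 (adjusted p = 0.064), ZL rat 3 (0.063), ZL rat 4 (0.056), ZF rat 3 (0.072) or ZF rat 5 (0.051), and with only the 2 groups in the fit (0.063). Its difference between ZF-SGLT2i and ZL passed without ZL rat 2 (adjusted p = 0.025) and with quantile normalization (0.012).

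Btg2, an antiproliferative gene that is both a p53 target and an immediate early gene, was at 63.2, 57.9, 55.6 and 49.2 CPM in the ZL rats, at 57.4, 65.0, 61.0 and 70.2 in the ZF rats and at 73.0, 86.3, 71.7 and 62.1 in the ZF-SGLT2i rats. The group means were 56.5 ± 5.78, 63.4 ± 5.47 and 73.3 ± 9.96 (SD, n = 4), and the groups overlapped. Neither neighbouring pair differed past the threshold, with log2 fold changes of 0.17 in ZF against ZL (adjusted p = 0.26) and 0.20 in ZF-SGLT2i against ZF (adjusted p = 0.33). From end to end the change was 0.37 in ZF-SGLT2i against ZL (SE 0.099, 95% confidence interval 0.15 to 0.58, adjusted p = 0.015), although ZF-SGLT2i rat 6 was below ZL rat 1, and without ZF-SGLT2i rat 3 the call was lost (adjusted p = 0.0501). Like the sums of the podocyte, immediate early and clock lists, that of the collecting duct markers had the same order of group means. All 8 were positive in ZF-SGLT2i against ZL with a median of 0.70, and 6 were called higher (5 to 7 when a rat was left out), among them Aqp2, coding for the vasopressin-regulated water channel, at 0.97 (adjusted p = 0.00074). Their summed level, with Aqp2 the most abundant and none at 0 in every rat, was 1878 ± 358 CPM in ZL, 2085 ± 346 in ZF and 2822 ± 171 in the treated rats, every one of which was above every other rat. Scnn1g, for a subunit of the epithelial sodium channel, was the single call in ZF against ZL (0.56, adjusted p = 0.0065), where the list had 4 without ZL rat 2, 3 without ZF rat 4 and 2 without ZF-SGLT2i rat 6. Aqp2 was the single call in ZF-SGLT2i against ZF (0.62, adjusted p = 0.0495), and it was lost without any 1 rat other than ZL rat 2, ZL rat 4 and ZF rat 5 (adjusted p from 0.055 to 0.14). The part of these cells in the Btg2 result was not tested.

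Immediate early genes, which cells switch on within minutes of a stimulus, were looked at beside Btg2. Of 14, 6 were called higher in ZF against ZL, 42.9% with a median of 0.47, among them Fos at 1.18 (adjusted p = 0.023) and Ier3 at 0.85 (adjusted p = 0.00086). The others were Egr2, Atf3, Nr4a1 and Klf2. The treated rats differed from ZF in 1 of the 14, Zfp36, which codes for an mRNA decay factor, at 0.53 (adjusted p = 0.006), and in ZF-SGLT2i against ZL 8 were. Their summed level was 680 ± 103 CPM in ZL, 800 ± 33.3 in ZF and 868 ± 82.9 in the treated rats, with Jun the most abundant, and their part in the Btg2 result was not tested. Without ZL rat 2 or 3 or ZF rat 3 or 5, Fos lost its call, with adjusted p from 0.051 to 0.065, and Egr2 and Atf3 lost theirs without any 1 of 8 rats each (up to 0.14), so that the list had 3 calls without ZF rat 3 or ZL rat 2 or 3, and 8 without ZL rat 1.

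Mdm2 and Gadd45a were not called in any comparison. Mdm2 was at 53.1 ± 3.55 CPM in ZL, 52.6 ± 3.55 in ZF and 52.4 ± 4.98 in the treated rats, with log2 fold changes of -0.02 (95% confidence interval -0.18 to 0.15), -0.01 (-0.17 to 0.16) and -0.02 (-0.19 to 0.14). Its direction changed with the scaling, being 0.02 in ZF against ZL with quantile normalization. Gadd45a, coding for a stress sensor that takes part in growth arrest, was at 80.4, 78.5, 82.1 and 70.1 CPM in the ZL rats, at 68.4, 71.0, 65.7 and 84.7 in the ZF rats and at 73.8, 96.7, 79.9 and 92.2 in the ZF-SGLT2i rats. Only ZF rat 5 among the untreated obese rats was above the lowest treated rat. The log2 fold change was -0.11 in ZF against ZL (adjusted p = 0.48), 0.24 in ZF-SGLT2i against ZF (95% confidence interval 0.03 to 0.44, unadjusted p = 0.0265, adjusted p = 0.21) and 0.13 in ZF-SGLT2i against ZL (adjusted p = 0.33). In GRCr8 a long non-coding gene, LOC100912188, overlaps Gadd45a, and the strand setting of the counting is not given in the sources used here, so reads of that gene may be among its counts.

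**Figure D3:**
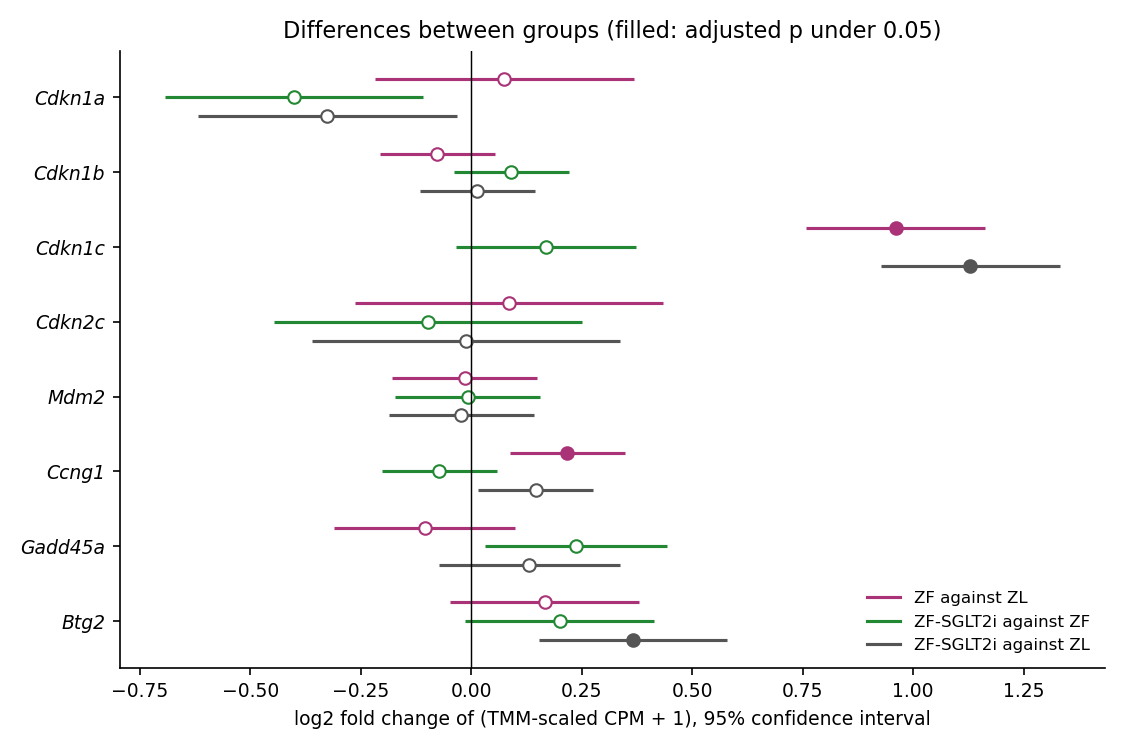
Log2 fold change of TMM-scaled CPM + 1 (horizontal axis) with its 95% confidence interval for the 8 analysed genes in the 3 comparisons, filled where the adjusted p from limma was under 0.05. Cdkn1c at 0.96 and 1.13, Ccng1 at 0.22 and Btg2 at 0.37 are filled, and no difference between ZF-SGLT2i and ZF is.

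The wider set of p53 targets did not move one way. Of 38 listed, 34 were tested, and in ZF against ZL 4 were called higher and 4 lower, 23.5% beside 18.8% of all genes, with a median of -0.05. Higher were Phlda3, which codes for an inhibitor of AKT signalling, from 8.71 ± 1.14 to 14.7 ± 0.892 CPM (log2 fold change 0.70, adjusted p = 0.0018), Gls2, for a glutaminase, at 0.66 (adjusted p = 0.019), Dram1, for a lysosomal membrane protein of autophagy, at 0.38 (adjusted p = 0.044) and Aen, for an apoptosis-related nuclease, at 0.24 (adjusted p = 0.044). Lower were Perp, a gene of cell junctions and apoptosis, at -0.41 (adjusted p = 0.031), Ppm1d, whose phosphatase turns p53 signalling off, at -0.26 (adjusted p = 0.029), Xpc, for a DNA damage sensor, at -0.24 (adjusted p = 0.022) and Cd82, for a tetraspanin, at -0.23 (adjusted p = 0.015). Leaving out 1 rat ended the call of each of these except Phlda3, and leaving out ZL rat 1 ended 6 of the 8, those of Aen, Cd82, Dram1, Perp, Ppm1d and Xpc, with adjusted p from 0.052 to 0.12. Gls2 lost its call without ZF rat 3 or 5 (adjusted p up to 0.058). The list as a whole had 2 calls without ZL rat 1, 3 without ZF rat 3, 4 without ZF rat 2 or ZL rat 4 and 5 without ZF rat 5, with quantile normalization or with only the 2 groups in the fit.

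Of the 34, 1 was called in ZF-SGLT2i against ZF, Dram1, which went back from 23.6 ± 2.37 to 15.7 ± 3.36 CPM (log2 fold change -0.58, adjusted p = 0.022) beside 17.8 ± 0.577 in ZL. Its call was lost without ZF rat 2, 3 or 4 or ZF-SGLT2i rat 2 or 4, with adjusted p from 0.061 to 0.073. Phlda3 stayed at 13.7 ± 2.33 CPM in the treated rats (-0.11 against ZF, adjusted p = 0.68). Against ZL, 6 of the 34 were higher in ZF-SGLT2i and 9 lower, 44.1% beside 27.4% of all genes, and 10 to 15 of them were called when a rat was left out.

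Of the 9 genes tested in the list of p53 and its regulators, Chek1, coding for a checkpoint kinase, rose from 1.54 ± 0.289 to 2.84 ± 0.360 CPM in ZF against ZL (log2 fold change 0.60, adjusted p = 0.013). Rchy1, coding for a ubiquitin ligase of p53, fell by 0.21 (adjusted p = 0.044), a call that was lost without any 1 of 8 rats, ZL rat 1, 2 or 3, ZF rat 2, 3 or 5 or ZF-SGLT2i rat 2 or 4 (adjusted p from 0.053 to 0.11). Mdm4, the partner of Mdm2, had 0.00 (adjusted p = 0.99). None of the 9 was called in ZF-SGLT2i against ZF, and in ZF-SGLT2i against ZL Atm was higher and Tp73 and Rchy1 were lower.

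The genes on which the CDK inhibitors act moved in both directions. Of 15 tested G1 cyclins, kinases, retinoblastoma and E2F genes, Ccnd1, coding for cyclin D1, rose from 216 ± 46.4 to 316 ± 34.8 CPM in ZF against ZL (log2 fold change 0.56, adjusted p = 0.0066) and Ccnd3 from 49.5 ± 6.41 to 62.0 ± 3.11 (0.33, adjusted p = 0.016). Rb1, whose protein the cyclin D kinases switch off, fell by 0.25 (adjusted p = 0.0041) and its relative Rbl2 by 0.16 (adjusted p = 0.029). That makes 4 of 15 or 26.7%, beside 18.8% of all genes, and Rbl2 lost its call without ZL rat 1 or 4 or ZF rat 2, 3 or 5 (adjusted p up to 0.074), with only these 2 groups in the fit (0.061) and with quantile normalization (0.19). None of the 15 was called in ZF-SGLT2i against ZF, although 13 were negative, with Ccnd1 at 234 ± 13.3 CPM (-0.43, unadjusted p = 0.0033, adjusted p = 0.075) and every treated rat below every ZF rat. Ccnd1 was called lower without ZL rat 4 (adjusted p = 0.011), with only these 2 groups in the fit (0.015) and by DESeq2 (0.021), and E2f1 without ZF rat 5 (0.027), without ZF-SGLT2i rat 2 (0.034) and with no filter (0.047). Cdk2 was higher in ZF-SGLT2i than in ZL by 0.51 (adjusted p = 0.003) and Rb1 lower.

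Of 10 regulators of the CDK inhibitors, the transcription factor gene Klf6 rose in ZF against ZL by 0.39 (adjusted p = 0.036), and was not called without ZL rat 1 or 4 or ZF rat 2 or 4 (adjusted p from 0.070 to 0.11). Foxo1, for a factor that turns on Cdkn1b and is restrained by insulin signalling, was higher in ZF-SGLT2i than in ZF by 0.31 (adjusted p = 0.045), a call that 13 of 20 alternatives ended, among them leaving out any 1 rat other than ZL rat 4 and ZF-SGLT2i rat 4 (adjusted p from 0.053 to 0.13). Foxo1 and Egr1 were the 2 of these 10 that were called higher in ZF-SGLT2i against ZL. Foxo1 lost that call without any 1 ZL rat, ZF rat 2 or 3 or ZF-SGLT2i rat 2, 3 or 6 (adjusted p from 0.052 to 0.14), and Egr1 without ZL rat 2, 3 or 4 or ZF-SGLT2i rat 2, 3 or 4 (from 0.058 to 0.090), by edgeR (0.054) and by DESeq2 (0.070). Of 7 tested paralogs of the members, none was called in ZF against ZL. A single one was called in ZF-SGLT2i against ZF, Tob1, an antiproliferative relative of Btg2, which went from 159 ± 11.0 to 197 ± 14.9 CPM (log2 fold change 0.30, adjusted p = 0.042), and 9 of 20 alternatives ended that call, among them those without ZL rat 1, ZF rat 2, 3 or 4 and ZF-SGLT2i rat 3, 4 or 6 (adjusted p from 0.056 to 0.12). Against ZL, 3 were higher in ZF-SGLT2i, Gadd45b at 0.47 (adjusted p = 0.016), Btg1 at 0.21 (adjusted p = 0.016) and Tob1 at 0.34 (adjusted p = 0.0047).

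**Figure D4:**
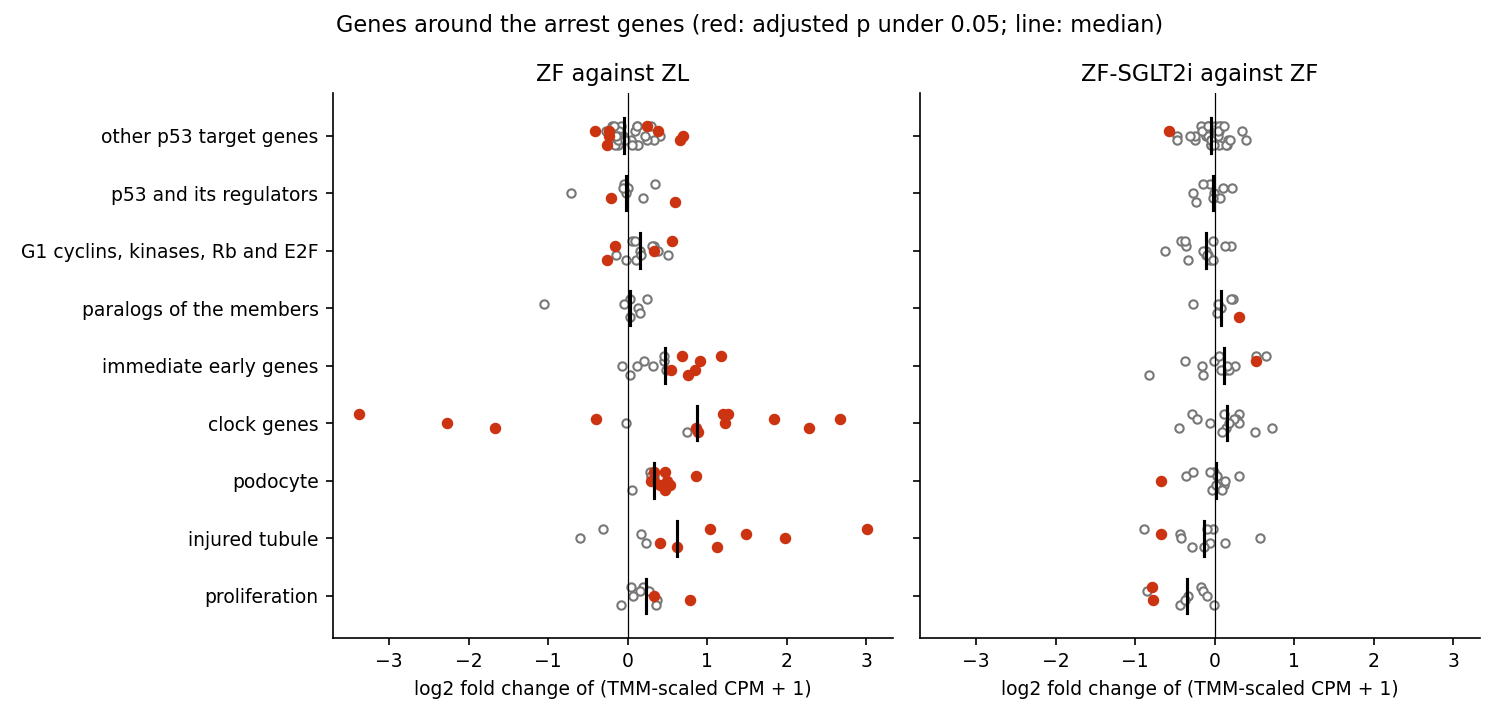
Log2 fold change of TMM-scaled CPM + 1 (horizontal axis, the same in both panels) of each tested gene in 9 lists, on the left for ZF against ZL, on the right for ZF-SGLT2i against ZF, red where the adjusted p from limma was under 0.05, with a line at the list's median. In ZF against ZL, the 34 other p53 targets spread around 0 with 4 red points on each side. In that same panel, the red points of the podocyte, injured tubule and immediate early lists are all to the right.

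Signs of tubule injury and proliferation stood beside the arrest genes as follows. Of 11 injured tubule markers, 7 were called higher in ZF against ZL, led by Havcr1 at 3.01 (adjusted p = 0.0038), 1 was lower in ZF-SGLT2i against ZF (Vcam1 at -0.67, adjusted p = 0.039, lost without any 1 ZF-SGLT2i rat or ZF rat 2, 3 or 4, with adjusted p from 0.074 to 0.12), and 7 were higher and 1 lower in ZF-SGLT2i against ZL. Their sum was 865 ± 68.6 CPM in ZL, 1774 ± 683 in ZF and 1508 ± 334 in the treated rats, with Spp1 the most abundant and none at 0 in every rat. Cdkn1a, named above as a gene that injured tubule cells switch on, had 0.08 in ZF against ZL (adjusted p = 0.74). The part of the injured tubule cells in the Ccng1 and Cdkn1a values was not tested. Of 10 tested proliferation genes, Mcm2 (0.33, adjusted p = 0.012) and Mcm5 (0.78, adjusted p = 0.0053) rose in ZF against ZL. Mki67 (-0.79, adjusted p = 0.026) and Ccnb1 (-0.77, adjusted p = 0.016) were lower in ZF-SGLT2i against ZF, where all 10 were negative with a median of -0.35. Both of these calls were lost without ZF rat 3 or 4 or ZF-SGLT2i rat 3 or 6, and that of Mki67 also without ZF rat 2 or ZF-SGLT2i rat 4, with adjusted p from 0.052 to 0.092.

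Markers of the other cells of the cortex had a few calls between lean and untreated obese rats. Of 10 fibroblast and mesangial markers, Pdgfrb (0.67, adjusted p = 0.0022), Itga8 (0.73, adjusted p = 0.028) and Col1a1 (0.61, adjusted p = 0.0435) were called higher in ZF against ZL, and of these Pdgfrb alone kept its call whichever rat was left out, with 1 call in the list without ZL rat 1 or 3 or ZF rat 2 or 4. Of 11 endothelial markers, Eng (0.31, adjusted p = 0.036) and Tie1 (0.31, adjusted p = 0.020) were, with 0 calls without ZL rat 1 or 3 or ZF rat 2 or 3, and 5 without ZL rat 2. Of 7 tested markers of the thick limb and distal tubule, Egf, coding for epidermal growth factor, was lower (-0.72, adjusted p = 0.0014), whichever rat was left out. The lipid droplet gene Cidec was lower too, at -2.22 (adjusted p = 0.019), a call lost without ZL rat 1 or ZF rat 3 or 5 (0.052 to 0.058), as the 1 of 3 tested blood and adipocyte markers that was called. Of 7 macrophage and lymphocyte markers, limma called 0 in ZF against ZL, edgeR 0 and DESeq2 0, with 2 at an unadjusted p under 0.05, and 2 were called without ZF rat 5. Between treated and untreated obese rats limma called 0 of them, edgeR 0 and DESeq2 1, with 2 at an unadjusted p under 0.05, and 1 was called without ZF rat 5 and 2 without ZF-SGLT2i rat 2.

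Clock genes differed strongly between lean and obese rats. Of 14 tested, 8 were higher and 4 lower in ZF against ZL (85.7% called), with Arntl at -3.38 and Dbp at 2.68 (adjusted p = 1.1e-05 for both), none was called in ZF-SGLT2i against ZF, and 13 were called in ZF-SGLT2i against ZL. The hour at which each rat's tissue was taken is not given in the sources used here, and the part of the clock in the member results was not tested. Of 8 tested glucocorticoid targets, limma called none in ZF against ZL, with 1 at an unadjusted p under 0.05, and edgeR none. That 1 was Mt2A, a metallothionein gene, at -0.51 (adjusted p = 0.057), which was called by DESeq2 (0.038), with only these 2 groups in the fit (0.038) and without ZL rat 2, ZF rat 4 or ZF-SGLT2i rat 4 or 6 (0.018 to 0.047). All 8 were positive in ZF-SGLT2i against ZF with a median of 0.59, where Mt2A was called (0.99, adjusted p = 0.0086). The list had 4 calls without ZF rat 5, 3 with only these 2 groups in the fit and 2 without ZL rat 1 and by DESeq2. In the treated rats against ZL 3 were called higher, Fkbp5 at 1.34 (adjusted p = 0.0084), Per1, a clock gene as well, at 1.25 (adjusted p = 0.027) and Tsc22d3 at 0.64 (adjusted p = 0.035). Per1 lost that call without ZL rat 1 or 4 or ZF-SGLT2i rat 2 or 6, by edgeR and by DESeq2 (adjusted p from 0.051 to 0.078), and Tsc22d3 without ZL rat 1 or ZF-SGLT2i rat 2, 3 or 6 (from 0.072 to 0.10). Their part in the Gadd45a and Btg2 values was not tested.

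Across the 12 rats, the genes whose values ran most like those of a member differed from member to member. Of the genes whose mean over the rats reached 10 CPM, Cdkn1c ran with Tmem123 (Pearson r = 0.993), Ppl (0.974) and Olfm1 (0.974), and Ccng1 with Serinc5 (0.967), Igfbp5 (0.924) and Gabrp (0.902). For Cdkn1a they were Zmynd15 (0.858), Capza1 (0.853) and Necap2 (0.851), for Cdkn1b Mlh3 (0.871), Gpsm1 (0.852) and Ik (0.827), and for Cdkn2c Nans (0.830), Mtmr2 (0.793) and Rnf26 (0.770). For Mdm2 they were Slc20a1 (0.877), Plekha5 (0.830) and Zfp579 (0.791), for Gadd45a Proser1 (0.893), Zmiz1 (0.884) and Gstm4 (0.874), and for Btg2 Ptdss2 (0.884), F11r (0.880) and Raver1 (0.879). No member was among the 3 nearest genes of another. These are the highest of many coefficients over rats that share their groups, libraries and scaling, and they are given as a description.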

How the data were processed

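The deposited signal values were made by the authors. They are whole reads per gene times a constant for each rat, and the constants equal those of CPM with edgeR's TMM factors. Division by the constant gave the reads back. The submitters' processing notes name Trimmomatic 0.38, RSEM 1.3.0, Bowtie2, edgeR and the build rn6, without their role, and how reads of near-identical genes were divided is not known. No other samples' columns were in the table.

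Groups were compared on log2(value + 1) by limma 3.58.1 (R 4.3.3), using eBayes with a trend and 1 fit for the 3 groups, after genes that did not reach 1 in 4 or more rats had been set aside, which left 11633. P-values were two-sided and adjusted by the Benjamini-Hochberg method over these genes. The paper's account of the sequencing names no test, and its general methods use Tukey's test among 3 groups. Nothing says that the rats of a group share a litter or cage, and each was sequenced once. Chi-square per gene between rats of a group was 5.43 to 50.1, so none was a copy of another. In simulated data for ZF against ZL with 200 changed genes among 11558, limma called 206, 196 of them rightly, and recovered 98% of the 2-fold changes, and without any change it called 0 of 11578.

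The genes named are the members, the genes of fixed pathway and marker lists that passed in ZF against ZL or ZF-SGLT2i against ZF (by count, with examples, where many passed), and for each member the 3 genes most like it. Some of these genes, 1 podocyte marker among them, are not reported here singly. The members, lists and tests were chosen with earlier results of these data known. As 20 alternatives, the fits were repeated with a pseudocount of 0.1, no filter, median ratios, quantile normalization, a fit with 2 groups, a term for the rat number, edgeR 4.0.16 and DESeq2 1.42.0 on the recovered reads, and leaving out each of 12 rats. Cdkn1c relative to podocyte markers, summed and singly, and its neighbours were added after the data had been seen.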

Additional observations from a re-analysis of the deposited data

Results flagged for a closer look

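Among 75 genes in 3 groups, 225 groups of 4 rats in all, a rat lay far from the other 3 of its group in 15, where chance alone gives about 11.2. In Cdkn1c, ZF-SGLT2i rat 2 was at 69.0 CPM and the other treated rats at 89.9 to 91.1. The same rat was low in Nphs1, at 173 with the others at 203 to 207, and in Podxl, at 881 with the others at 1119 to 1161. ZL rat 2 was high in podocyte genes, with Nphs1 at 173 (others 132 to 134) and Synpo at 157 (123 to 128). Slc22a18, the neighbour of Cdkn1c, was at 94.3 in ZF-SGLT2i rat 6 and at 132 to 139 in the others.

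Among genes of p53 and G1, Cd82 was at 123 in ZF rat 5 (others 135 to 136) and at 127 in ZF-SGLT2i rat 6 (138 to 140), Rb1 at 84.6 in ZF-SGLT2i rat 3 (89.2 to 89.8), Mdm4 at 39.6 in ZL rat 3 (29.2 to 30.5) and Btg1 at 130 in ZF rat 3 (115 to 116). Ier3 was at 65.1 in ZL rat 3 (48.3 to 51.0) and at 131 in ZF rat 5 (86.2 to 88.3), Tsc22d3 at 92.5 in ZF rat 5 (63.3 to 64.1) and the clock gene Tef at 149 in ZL rat 4 (89.1 to 98.7).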

How the results depend on the processing

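Cdkn1c was called higher in all 20 alternatives, by 0.91 to 1.03 (log2) in ZF against ZL and by 1.08 to 1.23 in ZF-SGLT2i against ZL. Members called in ZF against ZL numbered 1 with only the 2 groups in the fit and 1 with the replicate block, with Ccng1 lost in both (adjusted p = 0.063 and 0.17), and 1 to 2 when a rat was left out. In ZF-SGLT2i against ZL they numbered 1 to 3 when a rat was left out, and in ZF-SGLT2i against ZF 0 throughout. Genes called in ZF against ZL numbered 807 with the replicate block and 1384 to 2453 when a rat was left out. Those in ZF-SGLT2i against ZF numbered 223 with the replicate block, 641 by DESeq2 and 176 to 569 when a rat was left out. Those in ZF-SGLT2i against ZL numbered 1502 with the replicate block and 2238 to 3302 when a rat was left out. With the replicate block several lists had fewer calls. In ZF against ZL the podocyte markers had 1, the proximal tubule markers 1, the other p53 targets 2 and the G1 genes 0, with Rb1, Ccnd1 and Ccnd3 at adjusted p = 0.059, 0.070 and 0.10. In ZF-SGLT2i against ZL the other p53 targets had 3 of 34, where 1502 of 11633 genes were called, and the proximal tubule markers 1. The immediate early genes had 6 and 10 in these comparisons and the glucocorticoid targets 2 and 3. The rat numbers did not pair the rats. Correlations of deviations between same-numbered rats ran from -0.376 to 0.253, and not every rat was most like its own number.

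Changes of direction were seen only near 0. With quantile normalization Mdm2 turned to 0.022 (ZF against ZL) and 0.00069 (ZF-SGLT2i against ZL). With the replicate block, Cdkn1b had -0.028 and Cdkn2c 0.0033 in ZF-SGLT2i against ZL. When a rat was left out, Mdm2 ran from -0.059 to 0.018 in ZF against ZL, from -0.071 to 0.024 in ZF-SGLT2i against ZF and from -0.086 to 0.0098 in ZF-SGLT2i against ZL. Cdkn1a ran from -0.042 to 0.17 and Cdkn2c from -0.038 to 0.22 in ZF against ZL. The ranges in ZF-SGLT2i against ZL were from -0.14 to 0.090 for Cdkn2c and for Cdkn1b from -0.022 to 0.050. The cause of these changes was not tested. Over all alternatives for the members and for the pathway genes called, 1585 kept their direction and their side of the threshold, 169 lost a call, 3 gained one and 23 changed direction. Cdkn2c rested on the fewest reads among the members, 44 to 96 per rat.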
